A study of Mus musculus with 36 samples.

Results

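RNA of 8 genes of the voltage-gated sodium channel family, Scn1a, Scn3a, Scn7a, Scn8a, Scn9a, Scn2b, Scn3b and Scn4b, was measured by RNA-seq in 3 populations of cells sorted from mouse skeletal muscle. The genes were chosen by symbol, and each symbol was matched to its Ensembl identifier in a count table of 52636 genes, where all 8 have a row. Scn1a, Scn3a, Scn7a, Scn8a and Scn9a encode pore-forming alpha subunits, and Scn2b, Scn3b and Scn4b encode auxiliary beta subunits.

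Voltage-gated sodium channels open when the membrane depolarizes and carry the inward current of the action potential in axons and muscle fibres. The alpha subunit forms the pore, and beta subunits alter its gating and its delivery to the membrane and also serve as cell adhesion molecules. Scn7a is the exception among the alpha subunits, since its product, Nax, is a sodium-sensing relative that is not opened by depolarization in the usual way and is known from glia. Perisynaptic Schwann cells (PSCs) are glial cells that cover the motor nerve terminal at the neuromuscular junction.

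The cells came from juvenile S100β-GFP;NG2-dsRed mice, in which the S100b promoter drives GFP and the promoter of Cspg4, the gene of NG2, drives dsRed, so every population carried both transgenes. Diaphragm, pectoralis and limb muscles were digested and the cells were sorted by fluorescence, with a single mouse behind each library. PSCs were the cells with both colours (NG2DsRed+/S100GFP+, n = 9), S100β-GFP+ cells had GFP alone (S100GFP+, n = 8) and NG2-dsRed+ cells had dsRed alone (NG2DsRed+, n = 10), which makes 27 of the 36 libraries in the labels. A gate on either colour holds any cell of the digested muscle in which that promoter was active. The comparisons ask which genes set PSCs apart from the cells that share only one of their markers.

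Markers of the sorted cells were checked first, as CPM (counts per 1000000, with library sizes scaled by TMM, which evens out differences in composition). Cspg4 averaged 689 ± 132 CPM in PSCs (SD, n = 9), 71.0 ± 42.3 CPM in S100β-GFP+ libraries (SD, n = 8) and 665 ± 138 CPM in NG2-dsRed+ libraries (SD, n = 10). The summed level of 9 genes of the Schwann cell lineage was between 2191 and 3321 CPM in PSCs, between 66.5 and 453 CPM in S100β-GFP+ libraries and between 36.1 and 87.4 CPM in NG2-dsRed+ libraries. For these genes the S100β-GFP+ libraries lay far below PSCs, which goes against the name Schwann cells that the study gives them. Most of them still lay above every NG2-dsRed+ library. Their 8 myelin genes summed to 1553 to 3736 CPM, against 2572 to 3497 CPM in PSCs and 306 to 1070 CPM in NG2-dsRed+ libraries. They are named here by their fluorescence only. The study's methods keep fewer S100β-GFP+ replicates after quality control than the table has columns for, without naming the ones removed, so a library that the authors left out may be among them. Their 6 fibroblast genes summed to 15432 to 31753 CPM and their 6 macrophage and leukocyte genes to 1056 to 10174 CPM, against 1297 to 3509 CPM and 34.5 to 570 CPM in PSCs. NG2-dsRed+ libraries had 7290 to 15812 CPM on 10 pericyte and smooth muscle genes, against 796 to 1494 CPM in PSCs and 243 to 1652 CPM in S100β-GFP+ libraries. They also had 1466 to 3359 CPM on 6 endothelial genes, against 121 to 566 CPM in PSCs and 130 to 2500 CPM in S100β-GFP+ libraries. Their fibroblast genes summed to 2272 to 17720 CPM.

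Libraries held 5221655 to 9592875 counts on genes. Lars2 and the unnamed genes Gm23935 and Gm15564 made up 3.64% to 40.0% of a library. Some libraries stood apart. S100β-GFP+ libraries 14, 17 and 22 had counts on 462, 777 and 1261 olfactory receptor genes (at most 214 in any other library), PSC library 18 had counts on only 14616 genes, and NG2-dsRed+ libraries 28 and 35 had the highest fibroblast sums of their population, 17720 and 14379 CPM. Results that rest on these libraries are given with and without them.

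Among the 6 genes that passed the filter on low counts, Scn2b and Scn4b had the greatest fold differences between populations. They are neighbours on chromosome 9, read in the same direction, at chr9:45117782-45130070 (+) for Scn2b (ENSMUSG00000070304) and chr9:45138395-45154152 (+) for Scn4b (ENSMUSG00000046480) in GRCm38, with 8324 bases between them. The 250 bases before the RefSeq start of each are shown (RefSeq, GRCm38.p6), with that of Scn7a, a gene that was highest in another population. These are chr9:45117626-45117875 (+) for Scn2b, chr9:45138374-45138623 (+) for Scn4b and chr2:66784911-66785160 (-) for Scn7a. The gene positions are from GENCODE M21, whose starts differ from those of RefSeq and lie inside these windows. By GENCODE, most of the Scn4b window and a part of the Scn2b window are within the gene. The Scn7a window reaches into its gene only with its last bases. Capitals mark matches to CANNTG in Scn2b, to CCAAT on the other strand in Scn4b, and to CANNTG and, on the other strand, GGGCGG in Scn7a.
Scn2b: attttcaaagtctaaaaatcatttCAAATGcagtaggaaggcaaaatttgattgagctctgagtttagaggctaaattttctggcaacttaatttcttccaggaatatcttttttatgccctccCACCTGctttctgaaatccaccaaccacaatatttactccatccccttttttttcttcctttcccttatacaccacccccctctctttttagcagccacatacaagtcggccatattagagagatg
Scn4b: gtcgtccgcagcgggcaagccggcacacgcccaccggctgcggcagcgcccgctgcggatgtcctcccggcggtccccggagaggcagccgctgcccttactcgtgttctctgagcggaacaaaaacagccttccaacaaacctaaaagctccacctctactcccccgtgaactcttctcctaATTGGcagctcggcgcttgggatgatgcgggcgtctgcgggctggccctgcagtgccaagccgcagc
Scn7a: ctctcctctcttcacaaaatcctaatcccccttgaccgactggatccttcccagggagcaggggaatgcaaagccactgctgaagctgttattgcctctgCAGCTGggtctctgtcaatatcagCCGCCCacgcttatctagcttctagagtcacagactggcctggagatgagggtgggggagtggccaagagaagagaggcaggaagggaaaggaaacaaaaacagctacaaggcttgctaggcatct

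The windows at the neighbouring RefSeq starts differ in base composition. The Scn2b window holds 1 CG pair, and 7.87% of 32817 mouse promoter windows of this length hold fewer. The Scn4b window holds 23 CG pairs, and 86.7% of windows hold fewer, while the Scn7a window holds 3. The median over all windows was 6. Short motifs were searched on both strands. Scn2b has 2 matches to the E-box CANNTG, which 66.2% of all windows hold. Scn4b has 1 match to the box CCAAT, held by 33.8% of windows. Scn7a has 1 match to the E-box and 1 to GGGCGG, a GC box held by 32.7% of windows. The TATA box TATAAA (12.4% of windows), the CArG box bound by serum response factor (1.47%) and the cAMP response element TGACGTCA (1.55%) had no match in the 3 windows. No motif of the set is held by both Scn2b and Scn4b in these windows. Promoter windows were found for 6 of the 8 genes.

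**Figure D1:**
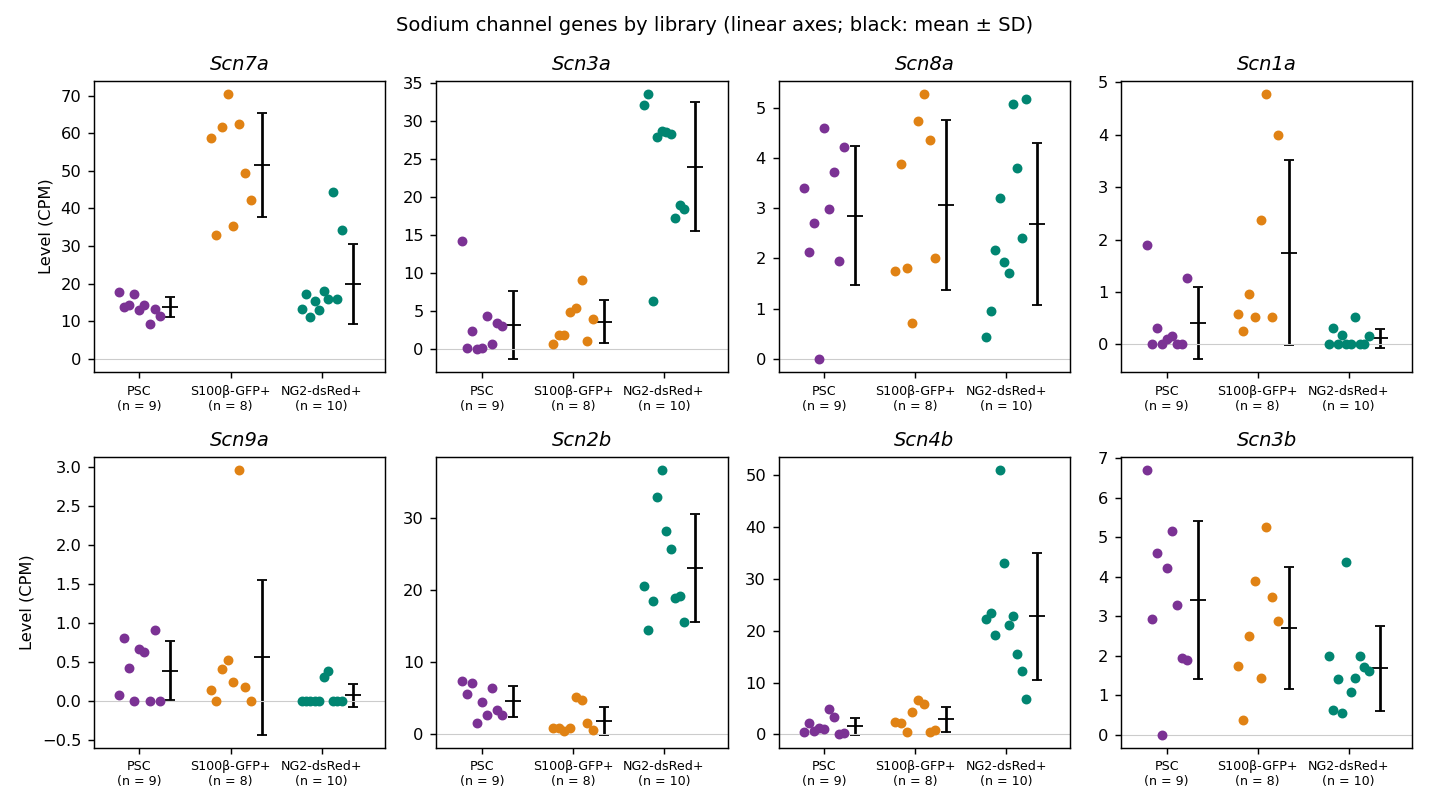
Level of each sodium channel gene in every library, in CPM on linear axes that differ between panels, with 1 point per library and the mean ± SD beside each population. The NG2-dsRed+ points of Scn2b and Scn4b lie above those of all other libraries (lowest 14.5 and 6.79 CPM), and the S100β-GFP+ points of Scn7a lie above all PSC points (lowest 33.0 CPM).

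Among the pore-forming genes, Scn7a had counts in all 27 libraries and was highest in S100β-GFP+ cells. Scn7a (ENSMUSG00000034810, chr2:66673425-66784914, -) ranged from 33.0 to 70.4 CPM in S100β-GFP+ libraries with a median of 54.1. It ranged from 9.15 to 17.7 CPM in PSCs (median 13.8) and from 11.2 to 44.3 CPM in NG2-dsRed+ libraries (median 16.0). PSC and S100β-GFP+ libraries did not overlap. In edgeR's quasi-likelihood test with Benjamini-Hochberg adjustment over 15330 genes, Scn7a was 3.74-fold higher in S100β-GFP+ cells than in PSCs (log2 fold change of PSCs over S100β-GFP+ cells -1.90, SE 0.24, adjusted p = 1.04e-07). Against NG2-dsRed+ cells it was 2.60-fold higher in S100β-GFP+ cells (log2 1.38, SE 0.23, adjusted p = 1.72e-05). In sorted bulk RNA, a smaller share of cells of a type that uses the gene and less RNA per cell cannot be told apart.

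The level of Scn7a in PSCs and in NG2-dsRed+ cells did not pass the test of their difference (log2 -0.52, SE 0.22, edgeR adjusted p = 0.0582). The NG2-dsRed+ values fell into a main range and a high pair. Libraries 28 and 35 had 44.3 and 34.3 CPM, while the other 8 lay between 11.2 and 17.9 CPM. Without these libraries the log2 difference was -0.05 (edgeR adjusted p = 0.829), and over all alternatives the adjusted p ranged from 0.0228 to 0.829. The fibroblast sums moved with this split, with 17720 and 14379 CPM in libraries 28 and 35 and at most 9370 CPM in the others, and they were also highest in the S100β-GFP+ libraries. The part of the fibroblast markers in the level of Scn7a was not tested. The 3 genes whose log2 CPM followed Scn7a most closely over the 27 libraries were Col1a2, a collagen chain that is itself in the fibroblast list (r = 0.92), Dpt, an extracellular matrix protein (r = 0.91), and the adhesion receptor Adgrd1 (r = 0.91). These libraries share populations, so such r values mostly describe the order of the populations.

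**Figure D2:**
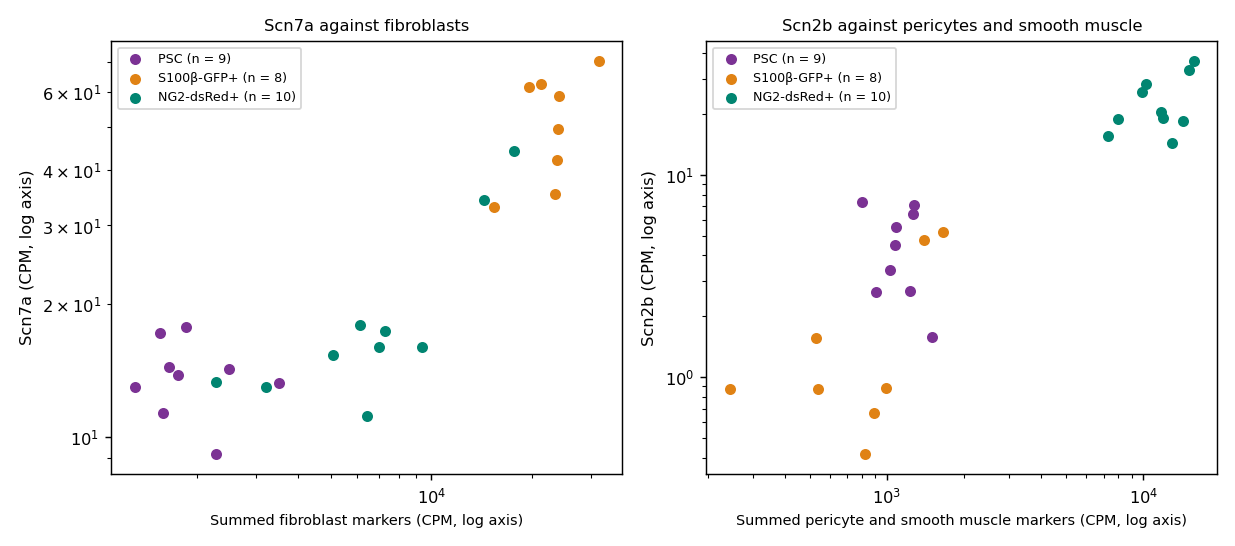
Left, Scn7a against the sum of 6 fibroblast genes, and right, Scn2b against the sum of 10 pericyte and smooth muscle genes, in CPM on log axes with 1 point per library. NG2-dsRed+ libraries 28 and 35 lie beside the S100β-GFP+ points on the left (17720 and 14379 CPM of fibroblast genes), and all NG2-dsRed+ libraries lie at or above 7290 CPM on the right.

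Scn3a, a pore-forming subunit best known from embryonic neurons, was highest in NG2-dsRed+ cells. Scn3a (ENSMUSG00000057182, chr2:65457118-65567627, -) had 6.34 to 33.5 CPM in NG2-dsRed+ libraries (median 28.1). It had 0 to 14.2 CPM in PSCs (median 2.40) and 0.726 to 9.05 CPM in S100β-GFP+ libraries (median 2.94). All NG2-dsRed+ libraries but library 9, at 6.34 CPM, lay above every other library. The difference was 7.37-fold from PSCs (log2 fold change of PSCs over NG2-dsRed+ cells -2.88, SE 0.61, edgeR adjusted p = 0.000303) and 6.70-fold from S100β-GFP+ cells (log2 -2.74, SE 0.65, edgeR adjusted p = 0.00128).

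Within PSCs the counts of Scn3a were uneven. Library 4 held 180 of the 295 counts of the 9 PSC libraries, at 14.2 CPM, and the next library was at 4.38 CPM. Library 18 had no count of the gene. Without libraries 4 and 18 the log2 difference of PSCs from NG2-dsRed+ cells was -3.48. Library 4 had the lowest pericyte and smooth muscle sum among PSCs, 796 CPM, and the highest sum of 13 neuronal genes, 16.2 CPM against a median of 6.87 CPM, with Chat at 0 in all PSC libraries. The neuronal genes summed to 10.4 to 41.6 CPM in S100β-GFP+ libraries, where Scn3a was low, and to 26.4 to 56.0 CPM in NG2-dsRed+ libraries. Most of the latter was Stmn2, a regulator of microtubules, with a mean of 34.5 CPM, whereas the neurofilament genes Nefm and Nefl averaged 0.325 and 0.0924 CPM there and 5.71 and 2.09 CPM in S100β-GFP+ libraries. The part of the neuronal genes in the level of Scn3a was not tested. PSCs and S100β-GFP+ cells differed by a log2 of -0.14 with a 95% interval from -1.38 to 1.10 (SE 0.63, edgeR adjusted p = 0.88), which leaves room for a difference of more than 2-fold either way. The genes closest to Scn3a were Agap2, a GTPase-activating protein (r = 0.90), the surface protein Plxdc1 (r = 0.87) and the growth factor Gdf11 (r = 0.87).

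Scn8a, the main channel of mature nodes of Ranvier, did not separate the populations. Scn8a (ENSMUSG00000023033, chr15:100869858-101045938, +) had 0 to 4.59 CPM in PSCs (median 2.97). It had 0.706 to 5.27 CPM in S100β-GFP+ libraries (median 2.94) and 0.426 to 5.18 CPM in NG2-dsRed+ libraries (median 2.28). These ranges overlap almost wholly. The log2 difference of PSCs was -0.09 from S100β-GFP+ cells (SE 0.49, 95% interval -1.05 to 0.87, edgeR adjusted p = 0.899) and 0.10 from NG2-dsRed+ cells (SE 0.46, 95% interval -0.81 to 1.00, edgeR adjusted p = 0.886). The intervals reach a change of about 2-fold. Between S100β-GFP+ and NG2-dsRed+ cells the log2 difference was 0.19 (SE 0.48, edgeR adjusted p = 0.809). The genes that followed Scn8a most closely were the unnamed genes Gm44283 (r = 0.80) and Gm37333 (r = 0.77) and the homeobox gene Cux2 (r = 0.80), at lower r than the closest genes of Scn7a and Scn3a.

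Scn1a and Scn9a, which encode channels of central neurons and of pain-sensing sensory neurons, were near the limit of the depth and did not pass the filter on low counts. Scn1a (ENSMUSG00000064329, chr2:66270778-66440840, -) had 76 counts over the 8 S100β-GFP+ libraries, all of which had at least 1. It had 41 counts over the PSC libraries, of which 5 of 9 had any, and 8 counts over the NG2-dsRed+ libraries, of which 4 of 10 had any. Its level was 0.250 to 4.77 CPM in S100β-GFP+ libraries (median 0.775), 0 to 1.89 CPM in PSCs (median 0.0956) and 0 to 0.520 CPM in NG2-dsRed+ libraries (median 0). Scn1a and Scn9a were compared by exact two-sided permutation tests of the mean CPM in all 3 comparisons, 6 tests in all. The smallest p of these was for Scn1a in S100β-GFP+ against NG2-dsRed+ cells, with means of 1.75 and 0.117 CPM (exact permutation p = 0.000274). Without S100β-GFP+ libraries 14, 17 and 22 it was 0.00333 (exact permutation). An edgeR fit without a filter, over 44705 genes, gave an adjusted p of 0.0046 for the same comparison (log2 3.62). Scn1a in PSCs against S100β-GFP+ cells had an exact permutation p of 0.0531, and of 0.227 without libraries 14, 17 and 22. PSC library 4 held 24 of the 41 counts of its population.

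Scn9a (ENSMUSG00000075316, chr2:66480080-66634962, -) had 31 counts in PSCs, 27 in S100β-GFP+ libraries and 5 in NG2-dsRed+ libraries. Its level was 0 to 0.908 CPM in PSCs (median 0.417), 0 to 2.96 CPM in S100β-GFP+ libraries (median 0.205) and 0 to 0.390 CPM in NG2-dsRed+ libraries (median 0). S100β-GFP+ library 22 alone held 18 of the 27 counts of its population. The exact permutation p was 0.0217 for PSCs against NG2-dsRed+ cells, 0.0485 for S100β-GFP+ against NG2-dsRed+ cells and 0.81 for PSCs against S100β-GFP+ cells, before any correction for the 6 tests. None of the 3 passed 0.05 in the edgeR fit without a filter (adjusted p = 0.123, 0.058 and 0.771). Without libraries 14, 17 and 22 the exact permutation p against NG2-dsRed+ cells was 0.354.

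The auxiliary genes Scn2b and Scn4b were both highest in NG2-dsRed+ cells. Their products bind the alpha subunit through a disulfide bond. Scn2b had 14.5 to 36.6 CPM in NG2-dsRed+ libraries (median 19.8). It had 1.58 to 7.33 CPM in PSCs (median 4.50) and 0.415 to 5.20 CPM in S100β-GFP+ libraries (median 0.879). Every NG2-dsRed+ library lay above every PSC and every S100β-GFP+ library. The level in NG2-dsRed+ cells was 4.99-fold that in PSCs (log2 fold change of PSCs over NG2-dsRed+ cells -2.32, SE 0.37, edgeR adjusted p = 7.15e-06) and 12.3-fold that in S100β-GFP+ cells (log2 -3.62, SE 0.43, edgeR adjusted p = 7.27e-08).

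Of the 8 genes, Scn2b alone was called higher in PSCs when they were set against S100β-GFP+ cells. PSCs had 2.47-fold the level of S100β-GFP+ cells (log2 1.31, SE 0.41, edgeR adjusted p = 0.00996), and 4 of 9 PSC libraries lay above every S100β-GFP+ library. S100β-GFP+ libraries 17 and 22 had 5.20 and 4.77 CPM, and the other libraries of that population had at most 1.57 CPM. The same libraries had the highest pericyte and smooth muscle sums of their population, 1652 and 1395 CPM, and the highest endothelial sums, 2500 and 1341 CPM. The part of these markers in the level of Scn2b was not tested. Without libraries 14, 17 and 22 the log2 difference was 2.44 (edgeR adjusted p = 1.62e-05). With only these 2 populations in the fit it was 1.26 and did not pass (edgeR adjusted p = 0.0536), the highest adjusted p over all alternatives. Chn1, a GTPase-activating protein (r = 0.94), and the G protein subunit Gnb4 (r = 0.93) followed Scn2b closely.

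Scn4b had 6.79 to 50.9 CPM in NG2-dsRed+ libraries (median 21.7). It had 0.130 to 4.85 CPM in PSCs (median 1.05) and 0.415 to 6.62 CPM in S100β-GFP+ libraries (median 2.22). As for Scn2b, the NG2-dsRed+ libraries lay above all others, but the lowest of them, library 35 at 6.79 CPM, was close to the highest S100β-GFP+ library. NG2-dsRed+ cells had 14.7-fold the level of PSCs (log2 fold change of PSCs over NG2-dsRed+ cells -3.88, SE 0.55, edgeR adjusted p = 1.14e-06) and 7.88-fold that of S100β-GFP+ cells (log2 -2.98, SE 0.55, edgeR adjusted p = 8.25e-05). This was the greatest fold difference of PSCs among the 6 tested genes. Library 35 also had the lowest pericyte and smooth muscle sum among NG2-dsRed+ libraries, 7290 CPM. Library 30, the next lowest for Scn4b at 12.2 CPM, had a sum of 11951 CPM, near the median of 11822 CPM. The part of these markers in the level of Scn4b was not tested.

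PSCs and S100β-GFP+ cells were not called different for Scn4b (log2 -0.90, SE 0.56, 95% interval -1.99 to 0.19, edgeR adjusted p = 0.19). The sign rested on 3 S100β-GFP+ libraries. Libraries 14, 17 and 22 had 4.41, 6.62 and 5.92 CPM, and the other 5 had 0.415 to 2.32 CPM. Without them the log2 difference was 0.28 (edgeR adjusted p = 0.746, with 0.0518 to 0.759 over all alternatives). The genes that followed Scn4b most closely were the laminin receptor Bcam (r = 0.94) and the inositol phosphatases Inpp5b (r = 0.94) and Inpp5a (r = 0.93). Over the 27 libraries Scn2b and Scn4b had an r of 0.77. This r was 0.70 within S100β-GFP+ libraries, 0.71 within NG2-dsRed+ libraries and 0.0090 within PSCs. Counts of Scn2b and Scn4b were low both in PSCs (385 and 110) and in S100β-GFP+ libraries (84 and 132).

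Scn3b, whose product binds the alpha subunit without a covalent bond, had its highest mean in PSCs, but no comparison passed. Scn3b (ENSMUSG00000049281, chr9:40269217-40291618, +) had 0 to 6.70 CPM in PSCs (median 3.29). It had 0.375 to 5.27 CPM in S100β-GFP+ libraries (median 2.69) and 0.534 to 4.38 CPM in NG2-dsRed+ libraries (median 1.52). The populations overlap, with the 0 in PSC library 18 and the 4.38 CPM in NG2-dsRed+ library 15 at the far ends of their groups. The log2 difference of PSCs was 1.03 from NG2-dsRed+ cells (SE 0.48, edgeR adjusted p = 0.0813) and 0.35 from S100β-GFP+ cells (SE 0.50, 95% interval -0.63 to 1.33, edgeR adjusted p = 0.595). S100β-GFP+ and NG2-dsRed+ cells differed by a log2 of 0.68 (SE 0.50, edgeR adjusted p = 0.322). Without PSC library 18 the difference from NG2-dsRed+ cells was 1.27 and passed (edgeR adjusted p = 0.00819), and it passed without NG2-dsRed+ library 15 as well (log2 1.30, edgeR adjusted p = 0.0302). Over all alternatives the adjusted p ranged from 0.0020 to 0.134. Celf3 (r = 0.81) and Carmil3 (r = 0.81), an RNA-binding protein and a regulator of actin capping, and the actin-binding Coro2b (r = 0.80) had the most similar pattern.

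Put together by comparison, 6 of the 8 genes could be tested. Between PSCs and S100β-GFP+ cells 2 of the 6 were called, Scn2b higher and Scn7a lower in PSCs, where 47% of all genes tested were called, 22.9% as higher and 24.1% as lower. Between PSCs and NG2-dsRed+ cells 3 were called, Scn2b, Scn3a and Scn4b, all lower in PSCs, where 44% of all genes were called in either direction and 23.1% as lower. Between S100β-GFP+ and NG2-dsRed+ cells 4 were called, Scn7a higher and Scn2b, Scn3a and Scn4b lower in S100β-GFP+ cells, where 33.3% of all genes were called, 18.1% as higher and 15.2% as lower. The median log2 fold change of the 6 genes was -0.11, -1.42 and -1.28 in these comparisons, beside 0.04, 0.02 and -0.02 for all genes.

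Against both other populations at once, Scn2b, Scn3a and Scn4b were higher in NG2-dsRed+ cells, as were 8.44% of all genes tested. Scn7a was higher in S100β-GFP+ cells than in both others (11.8% of genes) and Scn2b was lower there than in both others (5.91% of genes). None of the 6 genes was higher in PSCs than in both other populations, or lower than in both, by the edgeR test, where 13.9% and 14.4% of genes were, and none was lower in NG2-dsRed+ cells than in both others (5.75% of genes). Each pair of comparisons shares a population, so these counts are not independent of each other.

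**Figure D3:**
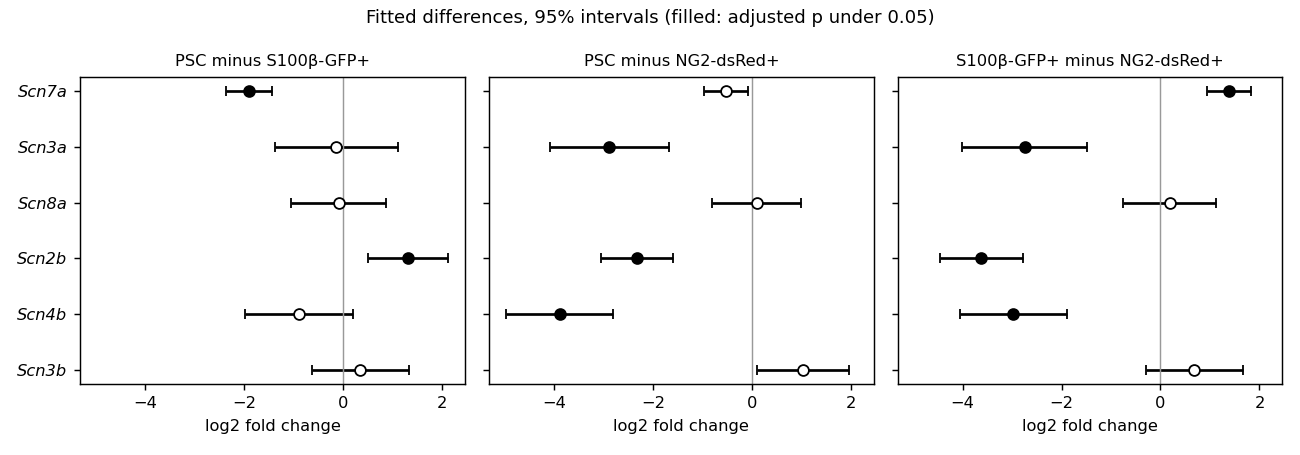
Log2 fold change of the 6 tested genes in the 3 comparisons, with 95% intervals from the edgeR fit, filled points having an adjusted p under 0.05. Filled points on the left of 0 in the middle panel are Scn3a, Scn2b and Scn4b at -2.88, -2.32 and -3.88.

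Levels were compared between genes per kilobase of exon, as CPM per kb, since longer transcripts collect more reads. Scn7a led in PSCs with 1.88 ± 0.360 CPM per kb (SD, n = 9), ahead of Scn2b with 0.982 ± 0.457. That gap exceeds either SD, whereas Scn2b and the next gene, Scn3b at 0.625 ± 0.368 CPM per kb, differed by less than their spread. Scn4b, Scn3a and Scn8a followed with means of 0.316, 0.255 and 0.181 CPM per kb, and Scn1a and Scn9a were last with 0.0371 and 0.0305.

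S100β-GFP+ cells had Scn7a at 7.03 ± 1.88 CPM per kb (SD, n = 8), and all 7 other genes had means between 0.0437 and 0.583 CPM per kb. Scn4b, Scn3b and Scn2b came next there, at 0.583, 0.493 and 0.409 CPM per kb, closer to each other than their spread. NG2-dsRed+ cells had another order, led by Scn2b with 4.95 ± 1.61 and Scn4b with 4.56 ± 2.44 CPM per kb (SD, n = 10), which differed by less than their SD. Scn7a with 2.71 ± 1.46 and Scn3a with 1.93 ± 0.681 CPM per kb came next and also lay within their spread of each other. With the length of the longest transcript in place of all exons, Scn4b and Scn3a changed places in PSCs, and so did Scn4b and Scn3b in S100β-GFP+ cells.

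The make-up of the pore-forming transcripts differed in the same way. Per kb, Scn7a was the highest pore-forming gene in 9 of 9 PSC libraries, with 61.2% to 100% of the sum of the 5 genes (median 81.0%). In S100β-GFP+ libraries it was the highest in 8 of 8, with 83.2% to 97.2% (median 92.8%). In NG2-dsRed+ libraries Scn7a was the highest in 5 of 10 and Scn3a in the other 5, with median shares of 48.0% and 47.0%. The 100% is PSC library 18, in which none of the other 4 pore-forming genes had a count.

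Of the auxiliary genes, Scn2b was the highest per kb in 8 of 9 PSC libraries (median 55.4% of the 3 genes) and in 7 of 10 NG2-dsRed+ libraries (median 52.4%). Scn3b held a median of 33.5% in PSCs and 3.55% in NG2-dsRed+ libraries, and Scn4b held 10.8% and 43.8%. The NG2-dsRed+ beta transcripts were thus mostly Scn2b and Scn4b, and those of PSCs mostly Scn2b and Scn3b. In S100β-GFP+ libraries Scn4b was the highest in 5 of 8 and Scn3b in 3 of 8.

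**Figure D4:**
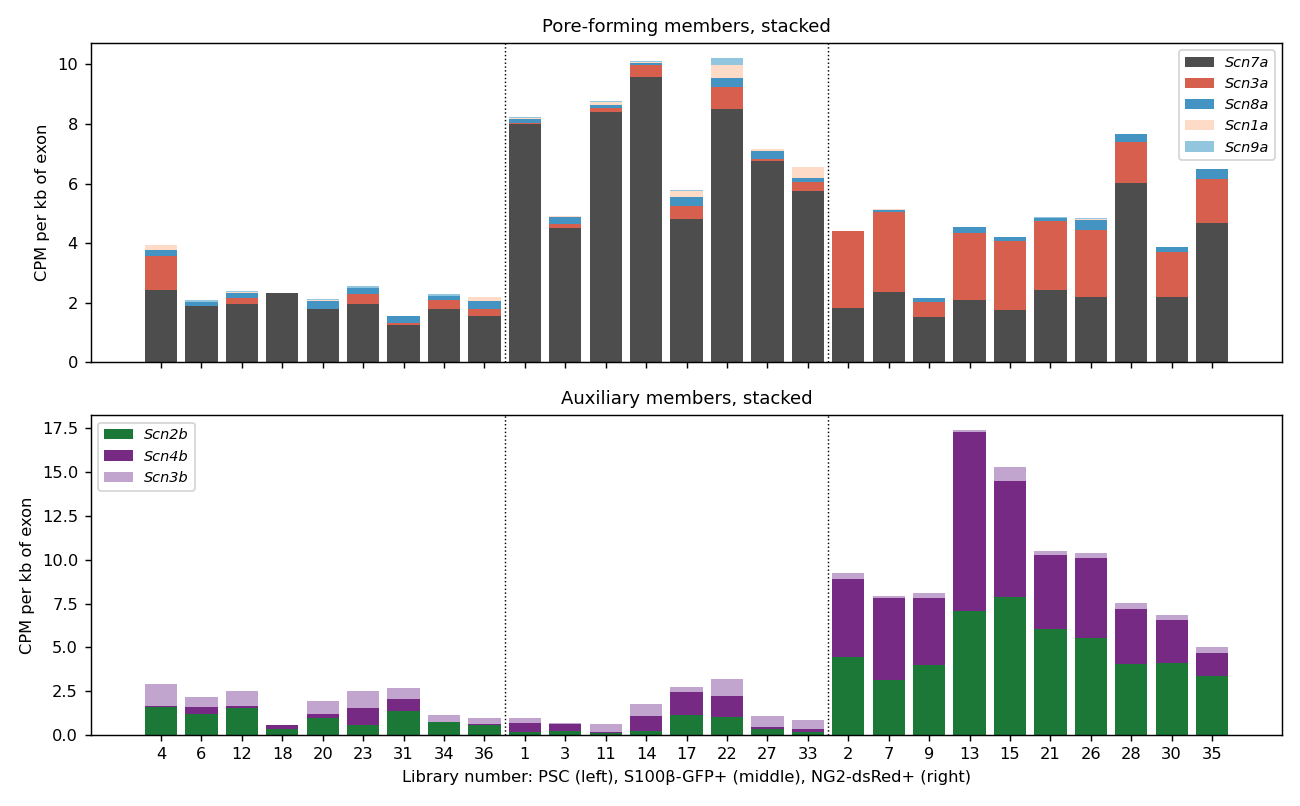
Stacked levels of the 5 pore-forming genes (top) and the 3 auxiliary genes (bottom) in each library, in CPM per kb of exon, with libraries named by number and populations separated by dotted lines. Scn7a makes up most of every bar of PSCs and S100β-GFP+ cells (at least 61.2%), and Scn3a is a large part of the NG2-dsRed+ bars (18.0% to 58.3%).

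The genes that work with these channels were examined as lists. A further 6 subunits of the family were listed, and 3 could be tested. Of these, 1 was lower in PSCs than in S100β-GFP+ cells, 1 was lower in PSCs than in NG2-dsRed+ cells and 1 was higher in S100β-GFP+ than in NG2-dsRed+ cells, and none was higher in PSCs in either comparison. Among 21 listed partners and anchors of the channels, such as ankyrins, spectrins, calmodulins and intracellular FGFs, 16 were tested. In PSCs 4 were higher and 3 lower than in S100β-GFP+ cells, and 4 were higher and 4 lower than in NG2-dsRed+ cells. The medians of log2 fold change were -0.15 and 0.02. The shares of all genes tested stand beside the counts of both lists. In PSCs 22.9% of all genes were higher and 24.1% lower than in S100β-GFP+ cells. Against NG2-dsRed+ cells 20.9% were higher and 23.1% lower in PSCs, and 18.1% were higher in S100β-GFP+ cells.

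Ank2, an ankyrin that ties membrane proteins to the spectrin skeleton, was lower in PSCs than in both other populations. It averaged 11.3 ± 4.60 CPM in PSCs (SD, n = 9), 45.9 ± 14.9 CPM in S100β-GFP+ libraries (SD, n = 8) and 61.3 ± 30.7 CPM in NG2-dsRed+ libraries (SD, n = 10). The log2 fold changes were -2.01 (SE 0.35, edgeR adjusted p = 2.27e-05) and -2.43 (SE 0.34, edgeR adjusted p = 1.13e-06), and the gene overlaps several other annotated genes. Nrcam, a cell adhesion molecule that helps cluster sodium channels at nodes, was lower in NG2-dsRed+ cells, at 0.977 ± 0.671 CPM against 10.4 ± 4.85 CPM in PSCs and 6.62 ± 3.14 CPM in S100β-GFP+ cells. PSCs exceeded NG2-dsRed+ cells by a log2 of 3.39 (edgeR adjusted p = 1.99e-06).

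Sodium channels outside the family differed in both directions. The list of these channels and their partners had 13 genes, of which 5 were tested, and 2 were higher and 2 lower in PSCs in each comparison. Of all genes tested, 22.9% were higher and 24.1% lower in PSCs than in S100β-GFP+ cells. Against NG2-dsRed+ cells the shares were 20.9% and 23.1%. The pair that was higher, Unc80 and Unc79, encodes large partners of the sodium leak channel NALCN. Unc80 ranged from 149.6 to 570.0 CPM in PSCs (median 396.5), from 0.348 to 7.41 CPM in S100β-GFP+ libraries (median 1.55) and from 0.141 to 2.59 CPM in NG2-dsRed+ libraries (median 1.11). No other population overlapped the PSCs. The log2 fold changes of PSCs were 7.17 (SE 0.58, edgeR adjusted p = 1.98e-11) over S100β-GFP+ cells and 8.22 (SE 0.55, edgeR adjusted p = 5.60e-13) over NG2-dsRed+ cells.

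Unc79 averaged 17.8 ± 7.05 CPM in PSCs (SD, n = 9), 2.34 ± 2.35 CPM in S100β-GFP+ libraries (SD, n = 8) and 0.307 ± 0.387 CPM in NG2-dsRed+ libraries (SD, n = 10). It was higher in PSCs by a log2 of 2.93 (SE 0.56, edgeR adjusted p = 8.12e-05) and 5.72 (SE 0.62, edgeR adjusted p = 9.64e-09). Nalcn, the pore that both partners serve, went the other way. It had 10 counts over all PSC libraries, with 6 of 9 at 0, and averaged 0.154 CPM in PSCs, 1.34 CPM in S100β-GFP+ libraries and 2.25 CPM in NG2-dsRed+ libraries. Its log2 fold changes were -3.13 (SE 0.88, edgeR adjusted p = 0.00431) and -3.87 (SE 0.85, edgeR adjusted p = 0.000452). Tpcn1, an endolysosomal channel, was also lower in PSCs, by 0.67 and 0.98 on the log2 scale (edgeR adjusted p = 0.00522 and 7.42e-05).

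The sodium pump and the sodium exchangers, which export the sodium that channels let in, changed in both directions. Of 17 listed genes 16 were tested. In PSCs 6 were higher and 6 lower than in S100β-GFP+ cells, beside 22.9% and 24.1% of all genes tested. Against NG2-dsRed+ cells 4 were higher and 8 lower in PSCs, beside 20.9% and 23.1% of all genes. Fxyd1, a small regulator of the pump, averaged 1317 ± 916 CPM in PSCs (SD, n = 9), 101 ± 42.3 CPM in S100β-GFP+ libraries (SD, n = 8) and 152 ± 104 CPM in NG2-dsRed+ libraries (SD, n = 10). Its log2 fold changes were 3.70 (SE 0.48, edgeR adjusted p = 1.92e-07) and 3.11 (SE 0.43, edgeR adjusted p = 6.18e-07). The related regulators Fxyd3 and Fxyd7 were higher in PSCs too, with means of 46.8 and 9.77 CPM, against 9.25 and 0.378 CPM in S100β-GFP+ cells and 1.72 and 0.571 CPM in NG2-dsRed+ cells. Of the other regulators of this kind, Fxyd5 was lower in PSCs, at 18.7 CPM against 229.6 CPM in S100β-GFP+ cells (log2 -3.61, edgeR adjusted p = 2.13e-10) and 66.4 CPM in NG2-dsRed+ cells (log2 -1.82, edgeR adjusted p = 9.90e-06). Fxyd6 was lower in PSCs than in NG2-dsRed+ cells (log2 -0.58, edgeR adjusted p = 0.00808) and did not pass against S100β-GFP+ cells (log2 -0.04, edgeR adjusted p = 0.867). Slc8a3, a sodium-calcium exchanger, averaged 30.6 ± 9.31 CPM in PSCs, 1.32 ± 1.10 CPM in S100β-GFP+ libraries and 0.679 ± 0.672 CPM in NG2-dsRed+ libraries (log2 4.58 and 5.41, edgeR adjusted p = 2.12e-08 and 4.37e-10).

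The beta subunits of the pump itself differed by population. Atp1b3 averaged 83.5 ± 8.86 CPM in PSCs (SD, n = 9), 184 ± 58.9 CPM in S100β-GFP+ libraries (SD, n = 8) and 128 ± 14.9 CPM in NG2-dsRed+ libraries (SD, n = 10), and was lower in PSCs in both comparisons (log2 -1.14 and -0.62, edgeR adjusted p = 2.10e-07 and 0.000648). Atp1b1 was highest in S100β-GFP+ cells (18.3 CPM) and lowest in PSCs (0.759 CPM), with a log2 of -4.57 (edgeR adjusted p = 3.24e-10). Atp1b2 was instead lowest in S100β-GFP+ cells, at 199 ± 92.3 CPM in PSCs, 195 ± 53.1 CPM in NG2-dsRed+ libraries and 15.2 ± 11.5 CPM in S100β-GFP+ libraries (log2 3.72 for PSCs over S100β-GFP+ cells, edgeR adjusted p = 3.11e-09). Slc8a2, another sodium-calcium exchanger, was higher in NG2-dsRed+ cells, at 3.60 CPM against 0.421 CPM in PSCs (log2 of PSCs over NG2-dsRed+ cells -3.02, edgeR adjusted p = 0.000396).

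Reads of these genes can be uncertain in a few places. The pore-forming genes are related in sequence, and 4 of them lie in a cluster on chromosome 2, so reads shared between copies may have been left out or split. An annotated gene overlaps Scn1a, Scn2b, Scn3a, Scn3b and Scn9a on the other strand, with at most 14 counts in any population. The sources used here do not say whether counting used the strand. Scn9a also overlaps a processed pseudogene, Gm13627, on its own strand, with 2 counts in S100β-GFP+ libraries and 0 in PSCs and NG2-dsRed+ libraries. No other annotated gene overlaps Scn4b, Scn7a or Scn8a.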

How the data were processed

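RNA-seq libraries of 3 sorted populations were made from amplified cDNA (SMART-Seq v4). The authors aligned trimmed reads with HISAT2 (GRCm38 in the submitters' processing notes) and counted them on genes with HTSeq. The table the authors deposited has raw whole-number counts. The sources used here do not give tool versions, annotation or strand setting. The other 9 labelled libraries were not analysed here. Columns were matched to samples by library number. No pair of libraries of a population was identical, and the lowest chi-square per degree of freedom between them was 8.93, above sampling noise.

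Symbols and positions came from GENCODE M21 (52403 of 52636 identifiers). The test was the quasi-likelihood test of edgeR 4.0.16 (R 4.3.3), after TMM scaling and filterByExpr (minimum count 10, 15330 genes), with 1 fit of all 27 libraries and Benjamini-Hochberg adjustment at 0.05. The study's methods name DESeq2, which was an alternative here (1.42.0), as were its size factors in edgeR, limma-voom with quality weights (3.58.1), other filters, only the populations compared, a term for the percentage of a library on Lars2, Gm23935 and Gm15564, and leaving out libraries. The fits without NG2-dsRed+ libraries 28 and 35, without PSC libraries 4 and 18, and the exact permutation tests were added after the data were seen. Log2 CPM for correlations used a prior count of 2. The scripts were tested on simulated counts. Reads were not marked by molecule, so PCR copies are counted too.

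The sodium channel genes and the companion and marker lists were chosen with earlier results of these data known. Companion genes were named singly where they differed at least 4-fold from both other populations or were among the 3 highest of their list, and the 3 genes with the highest Pearson correlation were named for each tested gene. The further subunits of the family are given as counts only, and a few genes that these rules name are not reported here. Tpcn1, Fxyd5 and Atp1b3 are among the highest of their lists, while Fxyd6, Stmn2, Nefm and Nefl are outside these rules and were chosen after their values were seen.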

Additional observations from a re-analysis of the deposited data

Results flagged for a closer look

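Among the 24 sets of a gene in a population, 3 held a library far from the others by Dixon's test. For normally distributed values chance gives this in about 1 of 20 sets. CPM of genes with few counts need not be distributed so, and the rate for these sets is not known. Scn3a in PSCs was 14.2 CPM in library 4, and the nearest of the other PSC libraries had 4.38 CPM. Scn9a in S100β-GFP+ cells was 2.96 CPM in library 22, and the nearest of the others had 0.529 CPM. Scn3b in NG2-dsRed+ cells was 4.38 CPM in library 15, and the nearest of the others had 1.99 CPM.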

How the results depend on the processing

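No paired analysis was possible, because the library numbers are all different and do not tell which libraries share a mouse. The study's methods do not say whether the populations were sorted from the same mice. The tests take all libraries as independent. Of 666 values of the 6 tested genes under an alternative, 641 kept their direction and their side of the threshold. Most of these values came from fits with 1 library left out, where 473 of 486 were kept. Under the other settings 168 of 180 were kept. Fitting only the populations compared left 1 gene called between PSCs and S100β-GFP+ cells in place of 2, since Scn2b (log2 1.26, edgeR adjusted p = 0.0536) no longer passed. Leaving out each library in turn gave 3 to 5 genes called between PSCs and NG2-dsRed+ cells, with 5 without NG2-dsRed+ library 15, where Scn7a (-0.58, edgeR adjusted p = 0.0409) and Scn3b (1.30, edgeR adjusted p = 0.0302) passed. Scn3b also passed there with DESeq2 (1.09), limma-voom (1.44) and without PSC libraries 4 and 18 (1.10), and Scn7a with the share of Lars2, Gm23935 and Gm15564 as a term (-0.63) or without NG2-dsRed+ library 9 (-0.59). Between S100β-GFP+ and NG2-dsRed+ cells 5 in place of 4 genes were called without a filter or with a mean of 5 counts as the filter, the addition being Scn1a.

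The values that changed sign were not called in any fit, and the cause was not tested. For PSCs over S100β-GFP+ cells Scn3a became 0.12 with limma-voom and 0.89 without S100β-GFP+ libraries 14, 17 and 22, and ranged from -0.94 to 0.23 as each library was left out. Scn8a became 0.23 with limma-voom, 0.12 without those libraries and 0.11 without PSC libraries 4 and 18, and ranged from -0.24 to 0.12. Scn4b became 0.28 without S100β-GFP+ libraries 14, 17 and 22. For PSCs over NG2-dsRed+ cells Scn8a became -0.17 with the share of the 3 genes as a term and ranged from -0.0043 to 0.34. At these depths Scn1a and Scn9a rest on 5 to 76 counts per population, and Scn8a and Scn3b on 110 to 291. Genes that were called also had few counts where they were low. Scn2b had 84 and Scn3a 163 over the S100β-GFP+ libraries, and Scn4b had 110 over the PSC and 132 over the S100β-GFP+ libraries.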
